A study of Mus musculus with 6 samples.

Results

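The cytochrome P450 genes of families 1 to 4, together with the mitochondrial family 27, were measured in isolated intestinal crypts of mice with and without Arid1a. P450 enzymes are haem proteins that oxidise drugs, plant compounds, steroids, bile acids and fatty acids. Those of the endoplasmic reticulum take their electrons from the reductase Por, and many of their genes are switched on by ligand-sensing factors such as Ahr, Nr1i2 (the pregnane receptor) and Nr1i3 (the constitutive androstane receptor). The gut lining is, after the liver, a main site where swallowed compounds meet these enzymes. Genes were taken by their symbol, from the accession printed for each array probe. Among these, measured genes were selected on their signal: a probe had to be marked well above background by the scanner software on at least 3 of 6 arrays, and the brightest such probe stood for the gene. The 103 probes with such a symbol covered 85 genes of 24 subfamilies, of which 52 genes in 17 subfamilies were measured, among 13496 measured genes of all kinds.

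All 3 knockout samples carried Villin-Cre and 2 floxed Arid1a alleles (Villin-Cre; Arid1a f/f), and all 3 control samples carried the floxed alleles alone (Arid1a f/f). The Villin promoter drives the Cre recombinase in the intestinal epithelium, so the deletion is directed to epithelial cells and other cells of the preparation keep the gene. Arid1a is a subunit of the BAF chromatin-remodelling complex. The strain of all 6 samples is labelled mixed, ages and the segment of intestine are not given in the sources used here, and nothing in the labels tells whether samples of a group are different animals. The p-values therefore reflect only the spread among these samples, part of which may be technical. Y-linked signal, given below, differed within both groups. One array was used per sample. Knockout 2 has a source name and genotype label of the control, and control 3 has those of the knockout; grouping here is by title and description.

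Arid1a was lower on every knockout array. Its signal was 2.20, 2.07 and 2.51 on knockout arrays 1 to 3, against 3.71, 3.47 and 4.01 on control arrays 1 to 3. These and all levels below are log2 signals relative to the 75th percentile of the array, and all differences are knockout minus control on that log2 scale, ± SE from limma with n = 3 per group. The difference for Arid1a was -1.47 ± 0.21 (adjusted p = 0.00733), and its 1 probe could not be placed relative to the deleted part. On this probe the arrays of contradicting labels, knockout 2 at 2.07 and control 3 at 4.01, lay with the groups of their titles. The share of probes well above background was 41.7% to 54.7%. Slide 1 held controls 1 and 2 and knockouts 1 and 2, and slide 2 held control 3 and knockout 3. Y-linked Eif2s3y was bright on knockouts 1 and 3 and control 1 and dim on the other 3 arrays, so Y-linked signal was uneven between the groups. It defines sex where that is used as a block below. Markers of crypt and villus epithelium were present. The counts of marker genes stand against 7.28% of all measured genes that rose and 7.62% that fell. Of 28 enterocyte genes 1 rose and 3 fell, and their summed level was 12.01, 12.68 and 12.96 on knockout arrays and 12.31, 12.42 and 12.68 on control arrays. Paneth cell genes fell for 6 of 8 measured, with sums of 7.76 to 10.2 in the knockout against 10.9 to 11.2 in the control. Goblet cell genes fell for 6 of 12, with sums of 9.72 to 10.3 in the knockout against 10.8 to 10.9 in the control. Stem cell genes fell for 3 of 11, with sums of 3.95 to 5.69 in the knockout against 6.35 to 6.78 in the control. Of segment markers, 1 of 11 proximal genes rose and 1 fell, 1 of 7 distal genes rose and 3 fell, and 2 of 7 colon genes fell. Calls for other cell types were 2 of 11 lower for exocrine pancreas, 1 of 2 higher for fibroblasts and smooth muscle, 1 of 7 higher and 1 lower for macrophages, 1 of 12 higher for T cells, and 2 of 4 higher for neutrophils. Of the 11 pancreas genes 10 had a negative difference, with sums of 3.45 to 4.34 in the knockout against 4.96 to 5.79 in the control. Fibroblast and smooth muscle sums were 5.53 to 6.15 in the knockout against 4.80 to 5.37 in the control. For B cells 0 of 4 were called by limma. At an unadjusted p under 0.05 there were 3, Cd22 at 1.28, Pax5 at -0.73 and Cd79b at -1.08. At that threshold 4619 of all 13496 genes passed in either direction. Many P450 genes are best known from the liver. The hepatocyte genes Alb, Fga, Fgb, Fgg, Ahsg and Hpx were under the detection filter, while 8 of 14 listed genes were measured, 1 of them fell, and their summed level was 3.48, 2.77 and 2.99 on knockout arrays against 3.86, 3.89 and 3.85 on control arrays. The part of these cell types in the P450 results was not tested. The P450 levels are those of bulk crypt RNA, in which fewer cells of a type and less RNA per cell cannot be told apart.

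Many P450 genes were lower in the knockout crypts, and few were higher. The genes that fell were both measured Cyp2b genes, all 4 measured Cyp2j genes, 4 of 6 Cyp2d genes, 2 of 8 Cyp3a genes, 1 of 11 Cyp2c genes, and Cyp27a1, Cyp2e1, Cyp2t4 and Cyp4v3. The genes that rose were Cyp4a12a, Cyp4a12b and Cyp4b1. None of the 6 measured Cyp4f genes was called (0 by limma). At an unadjusted p under 0.05 there was 1, where 4619 of all 13496 genes passed in either direction. The differences of the genes that fell ran between -4.48 (Cyp2b9) and -1.16 (Cyp2t4). Cyp4b1 and Cyp4a12b rose by 1.88 and 2.23, and Cyp4a12a, whose control arrays were not well above background, was at least 4.86-fold higher.

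In numbers, 20 of 52 measured P450 genes were called at an adjusted p under 0.05 by limma, where 14.9% of all 13496 genes were. Of these, 17 (32.7%) were lower, where 7.62% of all genes were, and 3 (5.77%) were higher, where 7.28% of all genes were. The median difference over the 52 genes was -0.90, against -0.01 over all genes. Groups did not overlap for 25 P450 genes with all knockout arrays the lower and for 5 with all knockout arrays the higher, where the shares of all genes were 20.7% and 19%. A gene bright in 1 group alone can pass the detection filter through that group, so these counts describe the measured genes and are not support. Members of a subfamily can be close copies whose probes may not tell them apart, so the counted genes are not independent. In a fit of the genes well above background on all 6 arrays, 13 of 39 P450 genes were lower, where 8.09% of genes were, and 1 was higher, where 7.66% were.

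**Figure D1:**
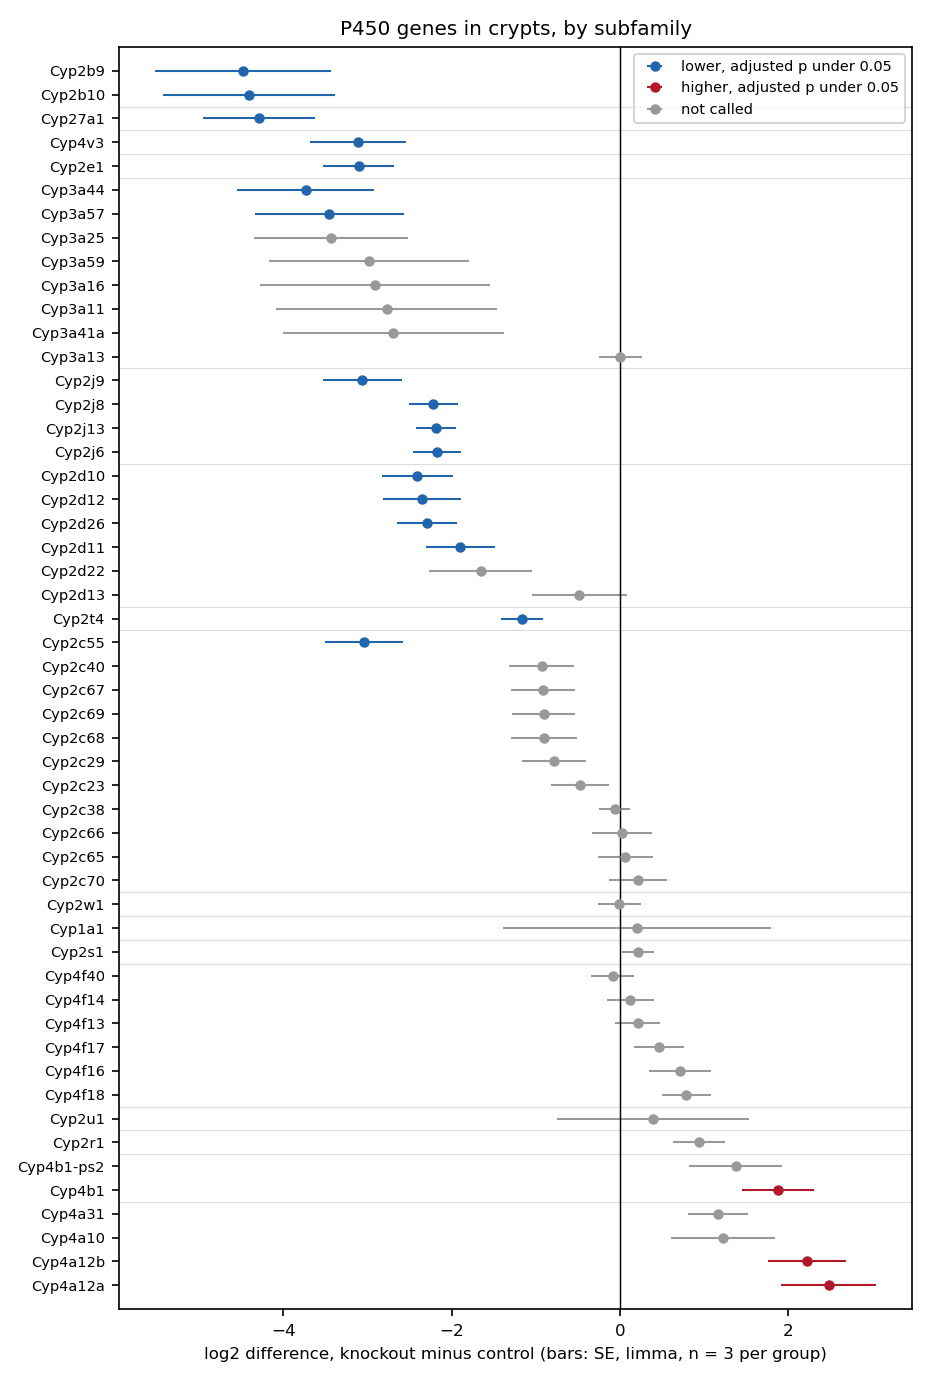
Log2 difference, knockout minus control, for each of the 52 measured P450 genes (points; bars are SE, limma, n = 3 per group), ordered by subfamily from top to bottom with thin lines between subfamilies; blue marks genes called lower, red genes called higher and grey genes not called. Cyp2b9 at -4.48 and Cyp2b10 at -4.41 stand farthest to the left, and the 4 Cyp4a genes all stand to the right of 0; Cyp4a12a is drawn at its measured difference, although no control array was well above background.

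Single arrays moved these counts. Leaving out control 1, 2 or 3 gave 8 genes called lower each time, where 2.12%, 2.61% and 2.69% of all genes were, and 0, 0 and 1 called higher, where 2.61%, 3.24% and 3.42% were. Without knockout 1 there were 22 lower (17.2% of all genes) and 7 higher (12.6%). Without knockout 2 there were 13 lower (3.45% of all genes) and 0 higher (3.41%), and without knockout 3 there were 19 lower (5.84%) and 2 higher (4.91%). Genes called lower in all 6 of these fits were Cyp27a1, Cyp2c55, Cyp2d26, Cyp2e1, Cyp2j6, Cyp2j8, Cyp2j9 and Cyp2j13. Of these, Cyp27a1, Cyp2e1 and Cyp2j9 were well above background on 1 of 3 knockout arrays and Cyp2c55 on 2. Cyp2d10 and Cyp4v3 were lost without any 1 of the controls. Lost without any 1 of the controls and also without knockout 2 were Cyp2b9, Cyp2b10, Cyp2d11, Cyp2d12, Cyp3a44, Cyp4a12a and Cyp4a12b. Cyp2t4 and Cyp3a57 were lost without any 1 of the controls and without knockout 3, but not without knockout 2. Cyp4b1 was lost without control 1, control 2, knockout 2 or knockout 3. Without both arrays of contradicting labels 3 genes were lower, Cyp2j6, Cyp2j8 and Cyp2j13 (1.06% of all genes). By limma 0 were higher (1.31% of all genes). At an unadjusted p under 0.05, 5 P450 genes were higher there, where 2617 of all 13496 genes passed in either direction. A fit with sex as a block gave 11 lower (4.76% of all genes) and 1 higher, Cyp4a12b (5.16%). Spread was wider among knockout arrays: the median SD of the 52 genes was 0.795 on knockout arrays and 0.274 on control arrays, against 0.296 and 0.196 over all genes. Knockout 1 was the lowest of the 3 knockout arrays for 42 of the 52 genes, where it was the lowest for 42.0% of all genes.

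The Cyp2b enzymes, which oxidise drugs and steroids, were among the P450 genes that fell most. Cyp2b10, the textbook target of Nr1i3, had 0.74, 4.22 and 4.97 on knockout arrays 1 to 3, against 7.83, 7.40 and 7.92 on control arrays 1 to 3. Cyp2b9 had -0.28, 3.28 and 4.02 on knockout arrays, against 6.95, 6.44 and 7.07 on control arrays. For both genes knockout 1 lay far below the other two knockouts, and the groups did not overlap. The difference was -4.41 ± 1.02 for Cyp2b10 (adjusted p = 0.0350) and -4.48 ± 1.04 for Cyp2b9 (adjusted p = 0.0355), or 21.2-fold and 22.3-fold lower. Without knockout 1 the differences were -3.13 and -3.17, both called. Within slides Cyp2b10 differed by -5.13 on slide 1 and -2.96 on slide 2, and its other probe gave -4.58. Over the 6 fits that leave out 1 array, the adjusted p of Cyp2b10 ran between 0.00305 and 0.110 and that of Cyp2b9 between 0.00349 and 0.112. With sex as a block neither was called. The other 3 Cyp2b genes with a probe, Cyp2b13, Cyp2b19 and Cyp2b23, were under the filter.

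Both Cyp2b genes lie on chromosome 7, and the 250 bases before their starts are shown because the signals of the pair moved together. Whether their probes tell the transcripts of the pair apart was not tested. The windows come from RefSeq on build GRCm38.p6, at chr7:25897408-25897657, plus strand for Cyp2b10 and chr7:26173159-26173408, plus strand for Cyp2b9, and are written 5′ to 3′ along the gene. Capitals mark any match, on either strand, to GCGTG (the core bound by Ahr with Arnt), AGGTCA (the half-site of nuclear receptors), AGTTCA (a variant of that half-site) or TATAAA (the TATA box). No matches overlapped.
Cyp2b10: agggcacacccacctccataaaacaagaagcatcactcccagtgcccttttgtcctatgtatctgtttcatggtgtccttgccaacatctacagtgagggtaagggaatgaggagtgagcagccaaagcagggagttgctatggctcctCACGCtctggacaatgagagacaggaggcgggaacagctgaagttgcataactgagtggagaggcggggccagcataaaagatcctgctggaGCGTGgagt
Cyp2b9: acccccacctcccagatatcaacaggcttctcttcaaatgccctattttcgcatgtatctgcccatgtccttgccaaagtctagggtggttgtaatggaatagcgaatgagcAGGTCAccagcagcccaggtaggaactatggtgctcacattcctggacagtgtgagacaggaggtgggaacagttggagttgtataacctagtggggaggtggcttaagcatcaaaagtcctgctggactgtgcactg
The windows were 71.0% identical in an end-to-end alignment. That of Cyp2b10 held 2 matches to GCGTG, and that of Cyp2b9 held 1 to AGGTCA. Such windows were found for 41 of the 52 measured genes and 17 of the 20 called genes. Of the 16 lower genes with a window, 4 held GCGTG, as did 5 of 24 genes not called and 28.2% of all 32851 windows of that length. AGGTCA was in 4 lower genes and 5 genes not called (14.0% of all windows), and its variant AGTTCA in 2 and 5 (11.8%). TATAAA was in 6 lower genes, 10 genes not called and 10 of 28 P450 genes not measured, where 12.4% of all windows held it. A gene with several starts counts once here. These matches describe letters and not bound sites.

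The Cyp3a genes, on chromosome 5, encode enzymes that clear many drugs and steroids, and Cyp3a11 is the best-known target of Nr1i2. All 8 with a probe were measured, and 7 had all knockout arrays below all controls, where 20.7% of all genes did. By limma 2 were called lower, where 7.62% of all genes were. Cyp3a44 had -5.84, -3.72 and -2.92 on knockout arrays, against -1.22, 0.70 and -0.76 on control arrays. Cyp3a57 had -2.48, 1.22 and 0.56 on knockout arrays, against 3.31, 3.15 and 3.21 on control arrays. Knockout 1 was the lowest array for both. The differences were -3.73 ± 0.82 (adjusted p = 0.0295) for Cyp3a44, which was well above background on 1 of 3 knockout arrays, and -3.45 ± 0.89 (adjusted p = 0.0468) for Cyp3a57. In fits without 1 array their adjusted p reached 0.0908 and 0.137, and with sex as a block neither was called. Cyp3a25 lay just outside the threshold, at -3.43 ± 0.91 (adjusted p = 0.0508), and was called at -2.27 without knockout 1 and at -4.16 without knockout 2.

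For 4 other Cyp3a genes 1 array decided the size of the difference. Cyp3a11 had -1.33, 3.65 and 3.88 on knockout arrays, against 4.71, 4.84 and 4.97 on control arrays. Cyp3a41a had 1.30, 6.43 and 6.31 on knockout arrays, against 7.35, 7.41 and 7.35 on control arrays. Relative to the control mean, Cyp3a11 stood at -6.17 on knockout 1, -1.19 on knockout 2 and -0.96 on knockout 3. The differences were -2.77 ± 1.32 (adjusted p = 0.186) and -2.69 ± 1.31 (adjusted p = 0.193). Without knockout 1 they were -1.08 (adjusted p = 0.0106) and -1.001 (adjusted p = 0.00883). Cyp3a16 at -2.91 ± 1.36 and Cyp3a59 at -2.99 ± 1.19 were also not called, and without knockout 1 both were, at -1.15 and -1.46. Enterocyte markers as a sum were lowest on the same array, at 12.01 on knockout 1. The part of that in the Cyp3a values was not tested.

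Cyp3a13, a Cyp3a gene known from the intestine, was not called. It had 6.69, 7.50 and 7.58 on knockout arrays, against 7.28, 7.24 and 7.23 on control arrays. The groups overlapped, and the difference was 0.01 ± 0.26 (adjusted p = 0.986). The windows before the starts of Cyp3a44, Cyp3a41a and Cyp3a13 are shown to set a called gene, a gene not called and the Cyp3a gene that differed least beside each other. They lie at chr5:145805875-145806124, minus strand, chr5:145720137-145720386, minus strand and chr5:137921620-137921869, minus strand (GRCm38.p6, RefSeq), with capitals as above.
Cyp3a44: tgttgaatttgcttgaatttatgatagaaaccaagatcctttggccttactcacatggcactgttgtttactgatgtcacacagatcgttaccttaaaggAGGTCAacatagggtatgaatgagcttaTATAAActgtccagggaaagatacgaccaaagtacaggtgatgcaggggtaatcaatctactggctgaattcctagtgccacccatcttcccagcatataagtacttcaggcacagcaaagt
Cyp3a41a: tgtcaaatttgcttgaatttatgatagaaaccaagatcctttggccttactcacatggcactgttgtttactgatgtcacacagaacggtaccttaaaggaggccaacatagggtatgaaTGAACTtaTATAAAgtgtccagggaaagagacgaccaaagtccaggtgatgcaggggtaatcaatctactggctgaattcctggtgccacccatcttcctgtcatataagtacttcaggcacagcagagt
Cyp3a13: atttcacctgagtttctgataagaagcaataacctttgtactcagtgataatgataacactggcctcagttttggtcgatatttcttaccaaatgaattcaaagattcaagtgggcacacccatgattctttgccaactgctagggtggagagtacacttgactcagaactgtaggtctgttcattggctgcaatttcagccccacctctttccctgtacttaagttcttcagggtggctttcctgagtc
The windows of Cyp3a44 and Cyp3a41a were 94.4% identical, and each held 1 TATAAA, with 1 AGGTCA in Cyp3a44 and 1 of the variant AGTTCA in Cyp3a41a. That of Cyp3a13 was 57.2% identical to Cyp3a44 and 55.6% to Cyp3a41a, and held no match to the motifs searched. Cyp3a genes are close copies of each other, and whether a probe also binds its neighbours' transcripts was not tested, so single values within the subfamily are uncertain.

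Cyp2d genes, on chromosome 15, are the mouse relatives of human CYP2D6, which oxidises many plant alkaloids and drugs. Cyp2d26 had 4.46, 5.37 and 5.94 on knockout arrays, against 7.43, 7.59 and 7.61 on control arrays. Cyp2d10 had 1.62, 2.62 and 3.37 on knockout arrays, against 4.76, 4.97 and 5.11 on control arrays. The lowest control array of Cyp2d10 lay 1.38 above its highest knockout array, and that of Cyp2d26 lay 1.49 above. The differences were -2.29 ± 0.36 for Cyp2d26 (adjusted p = 0.0111, and -2.31 on its other probe) and -2.41 ± 0.42 for Cyp2d10 (adjusted p = 0.0154). Cyp2d12 gave 0.48, 1.63 and 2.44 on knockout arrays, against 3.76, 3.79 and 4.04 on control arrays, a difference of -2.35 ± 0.46 (adjusted p = 0.0214). Cyp2d11 gave 2.68, 3.67 and 4.38 on knockout arrays, against 5.29, 5.49 and 5.64 on control arrays, a difference of -1.89 ± 0.41 (adjusted p = 0.0290). In all 4 genes knockout 1 was the lowest array. Cyp2d22 at -1.65 ± 0.61 (adjusted p = 0.114) and Cyp2d13 at -0.48 ± 0.57 were not called. Of the 6 measured genes all were negative, with a median of -2.09. In fits without 1 array the adjusted p of Cyp2d10, Cyp2d11 and Cyp2d12 reached 0.0617, 0.0933 and 0.0762, and Cyp2d11 was not called with sex as a block. These genes too are close copies of each other.

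The Cyp2j genes, on chromosome 4, belong to a subfamily known for turning arachidonic acid into epoxides. All 4 measured members fell, where 7.62% of all genes did. Whether their probes tell the members apart was not tested. Cyp2j8 had 0.91, 0.52 and 0.43 on knockout arrays, against 3.32, 2.91 and 2.29 on control arrays. Cyp2j6 had 0.62, -0.03 and 0.19 on knockout arrays, against 2.85, 2.52 and 1.95 on control arrays. Cyp2j13 had -1.47, -1.97 and -1.50 on knockout arrays, against 0.89, 0.53 and 0.21 on control arrays. In these 3 genes knockout 1 was not set apart from the other two knockouts, and the groups were well separated. Differences were -2.22 ± 0.29 for Cyp2j8 (adjusted p = 0.00600), -2.18 ± 0.28 for Cyp2j6 (adjusted p = 0.00600, and -2.63 on its other probe) and -2.19 ± 0.24 for Cyp2j13 (adjusted p = 0.00315). Cyp2j9 had -3.40, -3.47 and -4.86 on knockout arrays, against -0.23, -0.90 and -1.42 on control arrays. It was well above background on 1 of 3 knockout arrays, and its difference was -3.06 ± 0.47 (adjusted p = 0.0104). Within slides Cyp2j13 differed by -2.43 on slide 1 and -1.71 on slide 2. Cyp2j5 and Cyp2j11 were well above background on no array.

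Cyp2c genes, on chromosome 19, include epoxygenases and hydroxylases of arachidonic acid. Only Cyp2c55 of 11 measured was called, where 14.9% of all genes were. It had -4.22, -2.55 and -2.59 on knockout arrays, against 0.05, 0.13 and -0.40 on control arrays, and its groups lay 2.15 apart at their nearest arrays. The difference was -3.04 ± 0.46 (adjusted p = 0.00987), its other probe gave -2.58, and 2 of 3 knockout arrays were well above background. Cyp2c65, another enzyme of arachidonic acid, had 5.39, 6.57 and 6.28 on knockout arrays, against 6.14, 5.75 and 6.15 on control arrays. Its groups overlapped, at 0.07 ± 0.32 (adjusted p = 0.896), and Cyp2c66 was at 0.02 ± 0.35. Cyp2c40, Cyp2c67, Cyp2c68 and Cyp2c69, near copies that their probes may not tell apart, were at -0.93, -0.91, -0.90 and -0.90, and Cyp2c29 at -0.78, with adjusted p between 0.142 and 0.191. Cyp2c23 at -0.48, Cyp2c38 at -0.06 and Cyp2c70 at 0.21 were not called either. The median of the 11 was -0.78.

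**Figure D2:**
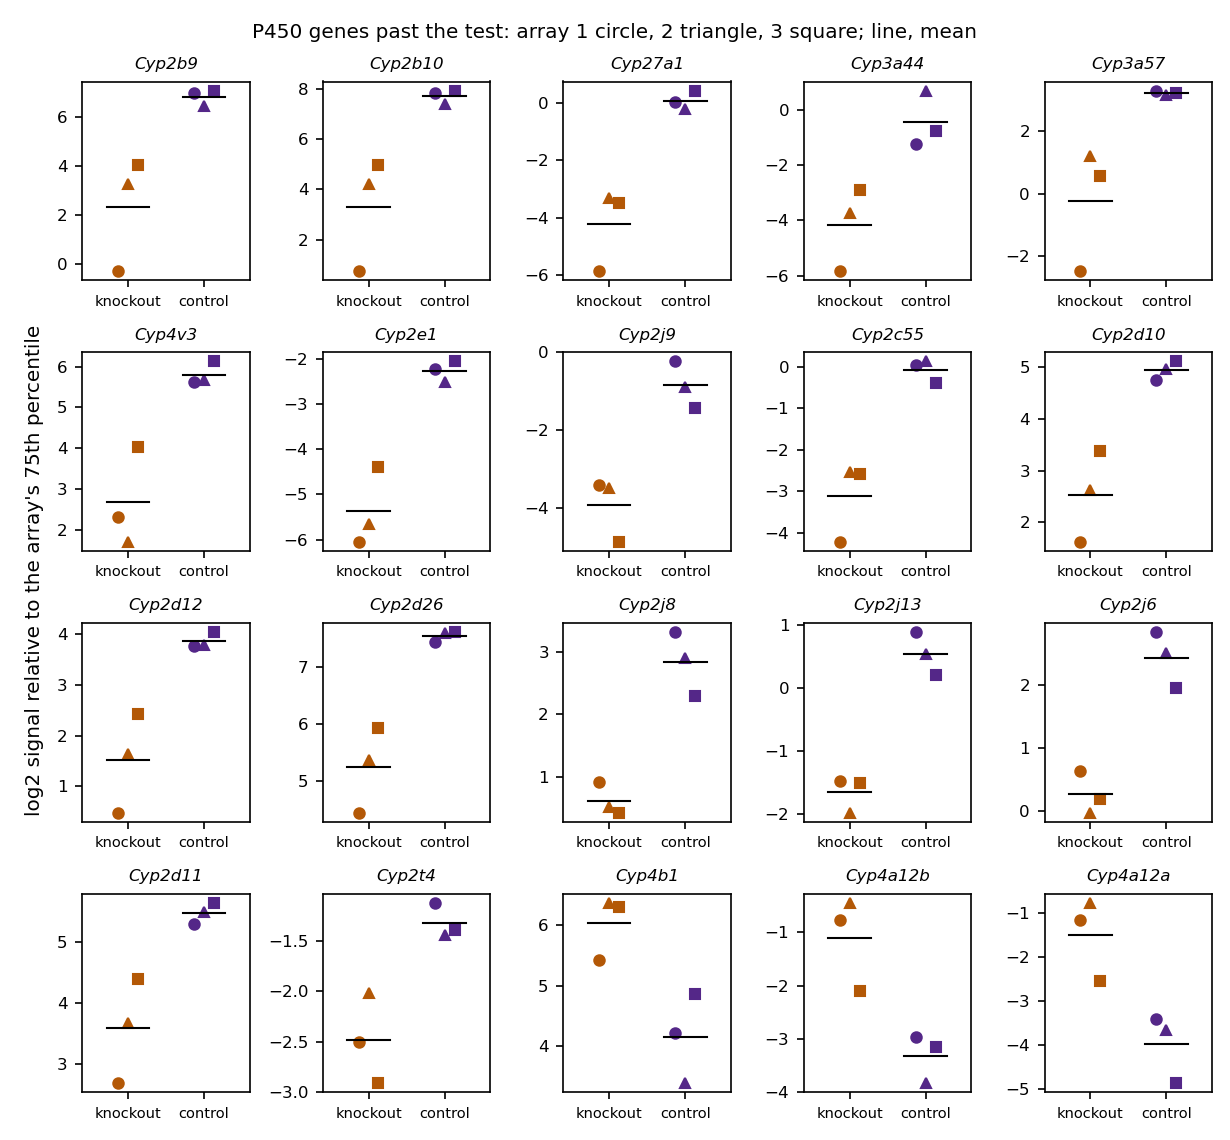
Level of the 20 called P450 genes, 1 panel per gene, as log2 signal with the 75th percentile of each array at 0, with knockout arrays on the left and control arrays on the right of each panel; circles, triangles and squares are arrays 1, 2 and 3 and lines are means. The groups do not overlap in any panel, and in the Cyp2b and Cyp3a panels knockout 1 is the lowest point, at -0.28 for Cyp2b9.

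Among single-member subfamilies, Cyp27a1, the mitochondrial sterol hydroxylase of bile acid synthesis, was near background in the knockout. It had -5.86, -3.31 and -3.48 on knockout arrays, of which 1 was well above background, against 0.01, -0.21 and 0.42 on control arrays. The difference was -4.29 ± 0.66 (adjusted p = 0.0105), with -4.49 on slide 1 and -3.90 on slide 2, and -3.47 without knockout 1. Cyp4v3, the mouse counterpart of human CYP4V2, a fatty acid hydroxylase mutated in a crystalline disease of the retina, had 2.31, 1.71 and 4.04 on knockout arrays, against 5.61, 5.67 and 6.13 on control arrays. Its lowest array was knockout 2 and its difference -3.12 ± 0.57 (adjusted p = 0.0175). Cyp2e1, which oxidises ethanol and small solvents, had -6.05, -5.65 and -4.39 on knockout arrays, of which 1 was well above background, against -2.22, -2.51 and -2.05 on control arrays. All its knockout arrays lay below all its controls, and it differed by -3.10 ± 0.42 (adjusted p = 0.00660). Cyp2t4 had -2.50, -2.02 and -2.92 on knockout arrays, against -1.12, -1.44 and -1.39 on control arrays, the smallest difference among called genes at -1.16 ± 0.25 (adjusted p = 0.0291). In fits without 1 array the adjusted p of Cyp4v3 and Cyp2t4 reached 0.0675 and 0.112, and Cyp2t4 was not called with sex as a block.

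The genes that rose all lie on chromosome 4, as do the Cyp2j genes that fell. Cyp4b1, a fatty acid hydroxylase that also activates plant furan toxins, had 5.43, 6.37 and 6.31 on knockout arrays, against 4.22, 3.39 and 4.86 on control arrays. Every knockout array was above every control array, and control 2 was the lowest. The difference was 1.88 ± 0.43 (adjusted p = 0.0329), or 3.68-fold, with 2.10 on slide 1 and 1.45 on slide 2. Its related pseudogene Cyp4b1-ps2 was at 1.38 ± 0.55 and not called. The window before the start of Cyp4b1, at chr4:115647722-115647971, minus strand (GRCm38.p6, RefSeq), is shown as that of the only gene that rose for which one was found, and held no match to the motifs searched.
Cyp4b1: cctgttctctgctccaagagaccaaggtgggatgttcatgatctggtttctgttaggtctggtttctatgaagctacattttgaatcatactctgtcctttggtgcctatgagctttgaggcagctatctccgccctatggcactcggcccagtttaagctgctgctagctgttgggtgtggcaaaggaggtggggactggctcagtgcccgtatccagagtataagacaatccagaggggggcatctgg
Cyp4a enzymes hydroxylate the end of fatty acid chains, and Cyp4a genes are known targets of the fatty acid receptor Ppara. Cyp4a12b had -0.76, -0.44 and -2.10 on knockout arrays, against -2.98, -3.84 and -3.16 on control arrays, a difference of 2.23 ± 0.46 (adjusted p = 0.0253). Of its 3 control arrays 2 were well above background. Cyp4a12a had -1.16, -0.76 and -2.56 on knockout arrays, against -3.40, -3.65 and -4.88 on control arrays. No control array had it well above background, so it passed the filter through the knockout group alone. Knockout crypts had at least 4.86-fold more signal, taking for each control array the higher of the dimmest signal well above background and its own (adjusted p = 0.0330). The pair are near copies and not independent of each other. In fits without 1 array the adjusted p reached 0.101 for Cyp4b1, 0.0860 for Cyp4a12b and 0.0940 for Cyp4a12a, and with sex as a block Cyp4b1 and Cyp4a12a were not called. Cyp4a31 had -0.93, 0.36 and 0.29 on knockout arrays, against -1.08, -1.40 and -1.31 on control arrays. Its groups did not overlap but it was not called, at 1.17 ± 0.36 (adjusted p = 0.0707), and Cyp4a10 was at 1.23 ± 0.62. Without knockout 1 both passed, at 1.59 and 1.96. Ppara itself was at -0.40 ± 0.35 and not called.

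Several subfamilies had no called gene. Cyp4f14, whose family inactivates leukotriene B4, had 7.24, 7.67 and 8.11 on knockout arrays, against 7.42, 7.28 and 7.95 on control arrays, and differed by 0.13 ± 0.28. Differences of the other measured Cyp4f genes were -0.08 for Cyp4f40, 0.21 for Cyp4f13, 0.47 for Cyp4f17, 0.72 for Cyp4f16 and 0.79 for Cyp4f18, which was called without knockout 1. Cyp2s1, a P450 of epithelia outside the liver, had 5.13, 4.98 and 5.49 on knockout arrays, against 5.05, 4.79 and 5.08 on control arrays, and differed by 0.22 ± 0.19. In Cyp4f14 and Cyp2s1 the groups overlapped. Cyp2r1, the vitamin D hydroxylase, had 1.36, 2.03 and 2.10 on knockout arrays, against 0.50, 1.43 and 0.75 on control arrays. Only control 2 reached the knockout range, and the difference was 0.94 ± 0.31 (adjusted p = 0.0865), or 1.17 and called without knockout 1. Cyp2w1, known from fetal gut and colon tumours, had -3.25, -2.32 and -2.78 on knockout arrays, against -2.81, -2.96 and -2.57 on control arrays.

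Cyp1a1, the classic target of Ahr, varied more within the groups than between them. It had -4.82, 0.00 and -0.02 on knockout arrays, against -1.35, -4.24 and 0.13 on control arrays. It was well above background on 2 knockout and 2 control arrays, and the difference was 0.21 ± 1.59 (adjusted p = 0.938). Cyp2u1, a fatty acid hydroxylase, had -3.95, 0.40 and -4.01 on knockout arrays, against -3.01, -3.13 and -2.60 on control arrays. Knockout 2 stood alone there, and the difference was 0.39 ± 1.14.

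**Figure D3:**
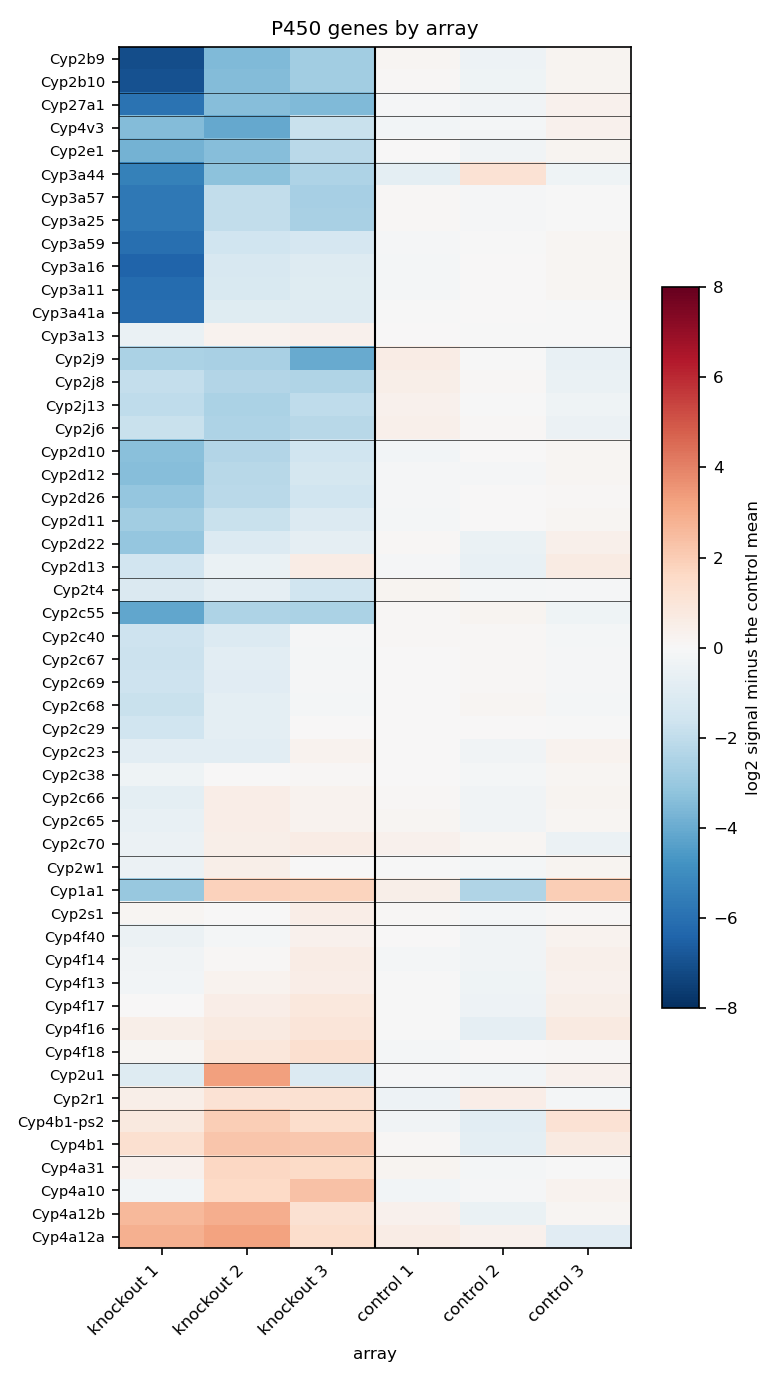
Level of each of the 52 measured P450 genes on each array as log2 signal minus the mean of the 3 control arrays (colour scale, blue below and red above), with knockout arrays 1 to 3 left of the black line and control arrays 1 to 3 right of it, genes ordered by subfamily. The Cyp2b and most Cyp3a genes are darkest on knockout 1, while Cyp2j6, Cyp2j8 and Cyp2j13 are similar on all 3 knockout arrays and Cyp2j9 is darkest on knockout 3.

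Of the 85 P450 genes with a probe, 33 were under the detection filter, 27 of them well above background on no array. These 27 were Cyp1a2 and Cyp1b1 of the dioxin-inducible family, Cyp27b1, which makes active vitamin D, and Cyp2a4, Cyp2a12, Cyp2a22, Cyp2ab1, Cyp2b13, Cyp2b23, Cyp2c39, Cyp2c50, Cyp2c53-ps, Cyp2c54, Cyp2d9, Cyp2d34, Cyp2d37-ps, Cyp2f2, Cyp2g1, Cyp2j5, Cyp2j11, Cyp4a14, Cyp4a29, Cyp4a30b, Cyp4f15, Cyp4f37, Cyp4f41-ps and Cyp4x1. Cyp2a5, Cyp2b19, Cyp2c37, Cyp4f39 and the antisense gene Cyp4x1os were well above background on 1 array each and Cyp2d40 on 2. No gene was measured in 7 subfamilies: Cyp1b, Cyp27b, Cyp2a, Cyp2ab, Cyp2f, Cyp2g and Cyp4x. Closest to the filter were Cyp4a12a, just inside on 3 arrays, and Cyp2d40, just outside, with -5.92, -5.24 and -4.03 on knockout arrays and -3.89, -4.24 and -3.46 on control arrays. Of 6 genes with several kept probes (Cyp2b10, Cyp2c55, Cyp2d26, Cyp2j6, Cyp4a10 and Cyp4f16), all had the same sign on both. The called genes Cyp2j13 and Cyp2e1 also had other probes, which were well above background on no array. Their differences therefore rest on 1 probe each.

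Of 14 listed electron partners and haem genes 13 were measured and 0 were called by limma, where 14.9% of all genes were. Their median difference was -0.06. At an unadjusted p under 0.05 there were 2, Alas1 and Cyb5a, where 4619 of all 13496 genes passed in either direction. Por, the reductase that all P450 enzymes of the endoplasmic reticulum share, had 5.99, 7.07 and 7.29 on knockout arrays, against 6.29, 5.94 and 6.77 on control arrays. Knockout 1 was the lowest knockout array here too, and the groups overlapped, with a difference of 0.45 ± 0.38 (adjusted p = 0.430). Alas1, the first enzyme of haem synthesis, was at 0.70 ± 0.21 (adjusted p = 0.0702) and Cyb5a, the electron donor cytochrome b5, at -0.69 ± 0.22 (adjusted p = 0.0762).

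Among 29 measured regulators of 32 listed, 4 fell (13.8%, where 7.62% of all genes did). By limma 0 rose, where 7.28% of all genes did, and the median difference was -0.17. At an unadjusted p under 0.05, 3 regulators were higher, where 4619 of all 13496 genes passed in either direction. Ahr, the dioxin receptor, had 1.08, 0.34 and 0.97 on knockout arrays, against 1.95, 1.49 and 2.06 on control arrays, a difference of -1.04 ± 0.26 (adjusted p = 0.0443). Every knockout array lay below every control array. Hlf, a factor of the circadian output, had -6.07, -5.68 and -7.00 on knockout arrays, none well above background, against -1.18, -0.92 and 0.23 on control arrays, and was at least 9.97-fold lower (adjusted p = 0.00131). Cebpb, a leucine zipper factor, had 2.84, 2.88 and 2.99 on knockout arrays, against 3.98, 3.38 and 4.18 on control arrays, a difference of -0.94 ± 0.23 (adjusted p = 0.0410). Cdx1, an intestinal homeodomain factor, had 5.38, 5.32 and 4.50 on knockout arrays, against 6.42, 6.06 and 6.13 on control arrays, a difference of -1.14 ± 0.27 (adjusted p = 0.0376). The groups did not overlap for either. Hlf passed in each fit without 1 array, while Ahr passed without knockout 1 alone (adjusted p 0.0285 to 0.150 over the 6 fits), Cebpb without control 2 alone (0.0289 to 0.146) and Cdx1 without knockout 1 or knockout 3 alone (0.0231 to 0.136).

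The receptors that sense drugs were not called. Nr1i2 had 3.66, 4.90 and 4.76 on knockout arrays, against 4.45, 4.17 and 4.43 on control arrays, and differed by 0.09 ± 0.34 (adjusted p = 0.871). Nr1i3 had 1.30, 2.24 and 2.47 on knockout arrays, against 1.47, 1.59 and 1.69 on control arrays, and differed by 0.42 ± 0.31 (adjusted p = 0.371). Neither sensor's groups were separated, and knockout 1 was the lowest array for both. Hnf4a, a nuclear receptor needed for many liver and gut genes, had 7.98, 8.44 and 8.25 on knockout arrays, against 7.74, 7.74 and 7.90 on control arrays. Its groups did not overlap, but it was not called, at 0.42 ± 0.17 (adjusted p = 0.139). Of the P450 families outside those studied here, 6 of 20 listed genes were measured. One fell, Cyp39a1, an oxysterol hydroxylase, which had 0.49, 0.26 and -1.11 on knockout arrays, against 2.17, 1.64 and 1.43 on control arrays, and differed by -1.87 ± 0.44 (adjusted p = 0.0373). It did not pass without control 1, 2 or 3 or knockout 2, at adjusted p between 0.0700 and 0.126. The other 5, Cyp17a1, Cyp20a1, Cyp21a1, Cyp46a1 and Cyp51, lay between -0.32 and 0.38.

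**Figure D4:**
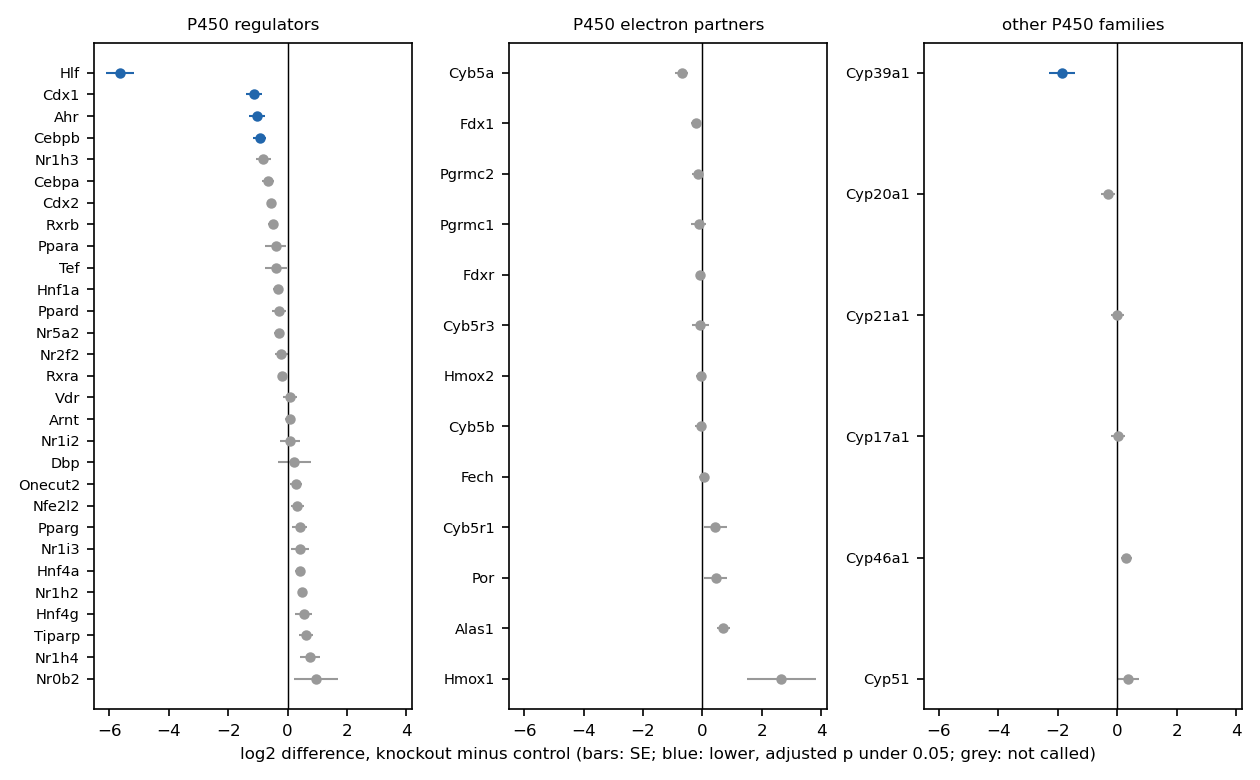
Log2 difference, knockout minus control (points; bars are SE, limma, n = 3 per group), for the 29 measured regulators of P450 genes on the left, the 13 measured electron partners and haem genes in the middle and the 6 measured genes of other P450 families on the right; blue marks genes called lower and grey genes not called. Hlf, drawn at its measured difference although no knockout array was well above background, stands farthest to the left, and no point of the middle panel is coloured.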

How the data were processed

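Per the labels, total RNA of 6 isolated crypt samples was converted to Cy3-labelled cRNA, and each sample has 1 Agilent array. The software was Agilent Feature Extraction, for which the file headers give version 12.0.3.1 and the submitters' processing notes 11.5.1.1. Per the file headers, the processed intensity deposited by the authors is background-subtracted and not scaled between arrays, and the array design names build mm9. The series table deposited by the authors is in log2 units. Compared with the scanner values, it matched the 75th percentile scale with each probe centred on its median, with column medians of -0.0717, 0.214 and -0.183 for knockouts 1 to 3 and 0.196, 0.0606 and -0.322 for controls 1 to 3. It served as an alternative.

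For the main analysis, control spots and outlier flags were left out, spots of a probe were averaged, and log2 intensity minus the array's 75th percentile (204.5 to 295.3 in linear signal) was taken. Of 56605 probes, 33767 received a symbol by accession from a RefSeq gene table and 22838 did not. The detection filter (well above background on 3 or more of the 6 arrays) kept 26746 probes, and the brightest per gene was used (13496 genes). Saturation was flagged on no spot. Precision is limited by the number of arrays.

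The test was limma (version 3.58.1, R 4.3.3) fitted on group alone, then eBayes and Benjamini-Hochberg adjustment over all genes, two-sided, called at an adjusted p under 0.05. It was tested on simulated data. Named with values on every array are all called P450 genes and the brightest of each subfamily, with Por, Ahr, Nr1i2, Nr1i3, Hnf4a and called genes of 3 companion lists; Ppara, Alas1, Cyb5a, the per-array values of Cyp3a11, Cyp3a41a and Cyp2d40, and all genes of the closing observations were added after their values were seen. The genes, lists and motifs were chosen with earlier results of these data known. Sex as a block and a 75th percentile taken only from probes detected everywhere were chosen after seeing the data. Alternatives were the labels, replicate and slide blocks, slide 1 alone, background correction (normexp, offset 50), other normalizations, filters, probe choice, variance models, thresholds and each array left out. Promoter windows are the 250 bases before RefSeq starts on GRCm38.p6. Probe and protein sequences were not used here. One regulator gene and 1 promoter motif are not reported here.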

Additional observations from a re-analysis of the deposited data

How the results depend on the processing

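With 3 arrays per group, signal near background limits the dimmest genes: 5 of the 17 lower P450 genes were well above background on fewer than 3 knockout arrays. Counts are given as all genes called, then P450 genes higher and lower, against 2011, 3 and 17. Grouped by source name and genotype they were 0, 0 and 0 by limma, with 207 genes at an unadjusted p under 0.05, Cyp4a12a at -0.26 and Ahr at 0.11. That grouping sets knockout 2 (Arid1a at 2.07) among controls and control 3 (Arid1a at 4.01) among knockouts. Without both arrays of contradicting labels the counts were 320, 0 and 3, and on slide 1 alone 689, 2 and 10. Without the filter on dim probes they were 697, 0 and 10, and with sex as a block (chosen after seeing the data) 1339, 1 and 11. With detection on all 6 arrays they were 1885, 1 and 13. Array weights gave 4766, 8 and 21, and an adjusted p under 0.10 gave 3445, 5 and 18. Leaving out 1 array gave 638 to 4023 genes, 0 to 7 higher and 8 to 22 lower. The causes of these changes were not tested. The fits without 1 array, without both arrays of contradicting labels and on slide 1 alone use fewer samples. The fit without the filter on dim probes tested 23462 genes. Scaled to array medians, the median gene shifted by -0.26, 28.7% of calls were higher instead of 48.8%, and the counts were 1949, 3 and 21. Quantile normalization (2069, 2 and 16) lost Cyp4a12a and Cyp3a57, and normexp (2260, 3 and 17) lost Cyp2t4 and added Cyp3a25. With slide as a block they were 2498, 3 and 16. Under the deposited table, other probe choices, the variance model and the other 75th percentile 1993 to 2287 genes were called, and with a 2-fold limit 1348, with 3 P450 genes higher and 17 or 18 lower each time. Same-numbered arrays correlated at 0.246, 0.0797 and 0.353 in their deviations from the group means, and each array correlated best with its own number. These values alone do not show whether the numbers pair the samples, and the main fit did not pair them. A replicate block gave 2731 genes, with 4 P450 genes higher and 18 lower.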

Other observations

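Hmox1 and Nr0b2, from the lists of haem genes and regulators, varied widely among knockout arrays and were singled out after their values were seen. Hmox1, which degrades haem, was at -0.62, 3.36 and -1.48 on knockout arrays 1 to 3 and at -2.22, -2.08 and -2.40 on control arrays 1 to 3, with a difference of 2.65 ± 1.16 (adjusted p = 0.159 by limma). Its highest array, knockout 2, was also the highest for Cyp2u1, at 0.40. Nr0b2, the small heterodimer partner that represses bile acid synthesis genes, was at -4.03, -1.16 and -1.94 on knockout arrays and at -3.96, -3.51 and -2.58 on control arrays, a difference of 0.97 ± 0.74 that was not called. Only 2 knockout arrays and 1 control array had it well above background.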
